A study of Cavia porcellus with 72 samples.

Results

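Cells keep their ion gradients, the acid inside their organelles and the asymmetry of their membranes with transport proteins that are driven by ATP. The genes described here encode the V-type proton pump (V-ATPase) and the P-type ATPases, and they were taken by their symbols (ATP6V and ATP6AP for the V-ATPase, and ATP1A, ATP1B, ATP2A, ATP2B, ATP2C, ATP7A, ATP7B, ATP8 to ATP11 and ATP13A for the P-type group) from tables of reads counted per gene. The rule found 51 genes in each of 3 tables, which listed 11651 genes for F1, 11716 for F2 and 11663 for F3. Of these 51 genes, 17 belonged to the V-ATPase and 34 to the P-type group, which held 17 ion and copper pumps with their beta subunits and 17 lipid flippases and P5 ATPases.

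The study asked whether exposure of a pregnancy to synthetic glucocorticoid (sGC) is followed by altered hippocampal gene transcription in 3 generations of offspring. Dunkin-Hartley guinea pigs of the F0 generation received repeated courses of betamethasone, a synthetic glucocorticoid, or saline (control) during pregnancy. F2 and F3 were bred through F1 and F2 males mated with females from outside the experiment, so that only the F0 dams were injected. Libraries came from the right hippocampus of female offspring killed undisturbed on postnatal day 40, each born to a different mother, with 6 control and 5 sGC animals in F1, 6 and 6 in F2, and 6 and 7 in F3.

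The V-ATPase joins a cytosolic V1 domain that splits ATP to a membrane V0 domain that carries protons, and it acidifies endosomes, lysosomes and synaptic vesicles, where the proton gradient drives transmitter loading. The Na,K-ATPase restores the sodium and potassium gradients that action potentials run down. Calcium is cleared by pumps of the endoplasmic reticulum (SERCA), the plasma membrane (PMCA) and the Golgi (SPCA), copper by ATP7A and ATP7B, and P4 flippases move phospholipids between the leaflets of a membrane. P5 ATPases form a family of their own, in which ATP13A2 exports polyamines from lysosomes.

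The 36 libraries held between 13507449 and 19767033 counted reads. Levels are given in CPM (the reads of a gene per 1e+06 counted reads, scaled by TMM within a generation), and effects as log2 fold changes (log2FC) of sGC against control. Adjusted p-values come from the quasi-likelihood test of edgeR, by the Benjamini-Hochberg method over all genes tested in a generation, and a gene is called where this p is below 0.05. Levels were not compared between genes because gene lengths were not given. Hippocampal markers (PROX1, WFS1, NEUROD2, NEUROD6 and FIBCD1) were detected in all 3 tables, with summed levels between 613 and 781 CPM. The labels give 5 sGC libraries the numbers 32 to 36, outside the number runs of their generations (F1 sGC replicates 4 and 5, F2 sGC replicate 6, F3 sGC replicates 5 and 6), and none of these is a control library. For them sGC and whatever the numbers stand for cannot be told apart. F1 sGC replicate 4 stood apart from all others, with the lowest V-ATPase level and the highest astrocyte marker level of any library. Changes of calls without libraries 32 to 36 are given beside the counts, and F1 then keeps only sGC replicates 1 to 3.

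In F3, 11 of 50 members tested were called, all lower in sGC animals, against a background of 5.04% of 11359 genes called, 2.87% lower and 2.17% higher. They comprised 7 of 16 V-ATPase genes and 4 of 34 P-type genes, ATP1B1 and ATP2A2 among the latter. In F1, 1 of 49 members was called, ATP6AP1L, which was higher in sGC animals, against a background of 2.08%, with 1.63% called higher and 0.457% lower. In F2, 0 of 50 members were called, as were 0% of all genes. ATP6V1E2 had too few reads to be tested in any generation, with group means between 0.518 and 0.637 CPM, and ATP8B4 had too few in F1, with means of 0.501 CPM in control and 0.571 CPM in sGC animals.

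**Figure D1:**
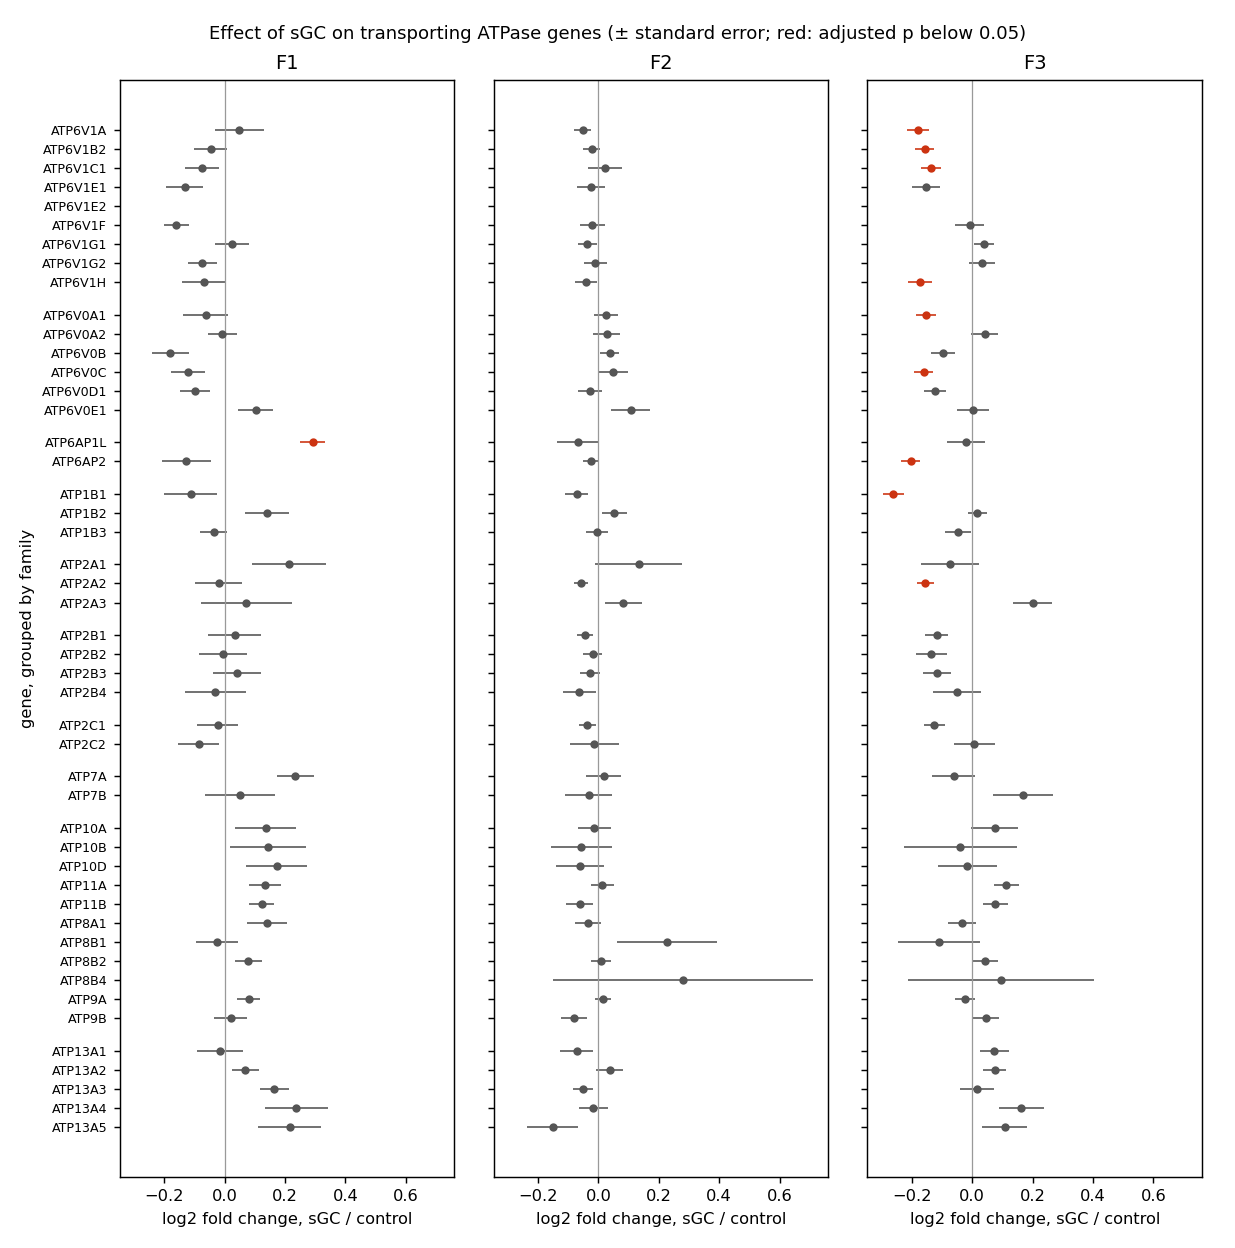
Log2 fold change of sGC against control (x axis) for 47 of the genes (y axis, grouped by family) in F1, F2 and F3, with points for the edgeR estimate, bars for its standard error and red for an adjusted p below 0.05. Red points are 1 in F1 (ATP6AP1L, to the right of 0), 0 in F2 and 9 in F3, all to the left of 0; genes without a point were not tested.

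The V1 domain was lower in F3 sGC animals at 4 of its 8 genes tested. ATP6V1A, the catalytic A subunit that splits ATP, lay between 497 and 559.8 CPM in control (median 547) and between 456 and 510.2 CPM in sGC animals (median 471). A single sGC animal reached the range of the control animals. The log2FC was -0.18 (SE 0.0354, adjusted p = 0.00902). ATP6V1B2, the B subunit of the same catalytic head and the form used in brain, lay between 884 and 945 CPM in control (median 919.9) and between 776 and 855 CPM in sGC animals (median 837), with no overlap. Its log2FC was -0.16 (SE 0.0319, adjusted p = 0.0102). ATP6V1C1, part of the stalk that comes apart when V1 leaves the membrane, lay between 291 and 308 CPM in control (median 298) and between 256 and 298 CPM in sGC animals (median 269). In 6 of 7 sGC animals the level was below every control, and the log2FC was -0.14 (SE 0.0336, adjusted p = 0.0267). ATP6V1H, a regulatory subunit at the junction of V1 and V0, lay between 152 and 174 CPM in control (median 164) and between 136.7 and 154.6 CPM in sGC animals (median 144.3). Again 6 of 7 sGC animals were below every control (log2FC -0.17, SE 0.0401, adjusted p = 0.0196).

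Of the V1 genes that did not pass, ATP6V1E1, a stalk subunit, had a log2FC of -0.15 (SE 0.0464, adjusted p = 0.0644). ATP6V1F, ATP6V1G1 and ATP6V1G2, which encode small subunits of the rotor and stalk, had log2FC of -0.01, 0.04 and 0.03. ATP6V1G1 had the smallest p of the V-ATPase genes with a positive log2FC in F3 (adjusted p = 0.528), from 63.8 to 71.0 CPM in control (median 67.7) and from 66.8 to 72.4 CPM in sGC animals (median 69.9).

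Among the 6 V0 genes, ATP6V0A1 and ATP6V0C were lower in F3 sGC animals. ATP6V0A1, the a subunit isoform of synaptic vesicles, lay between 455 and 509.6 CPM in control (median 471) and between 411 and 451 CPM in sGC animals (median 421). ATP6V0C, which builds most of the proton-carrying ring, lay between 825 and 886 CPM in control (median 867) and between 744 and 811 CPM in sGC animals (median 764). For both genes every sGC animal was below every control. The log2FC was -0.15 for ATP6V0A1 (SE 0.0339, adjusted p = 0.0156) and -0.16 for ATP6V0C (SE 0.0308, adjusted p = 0.00897). ATP6V0D1, which links V1 to the ring, had a log2FC of -0.12 (adjusted p = 0.0638), and ATP6V0B, another ring subunit, one of -0.10 (adjusted p = 0.173). ATP6V0A2, the a subunit known from the Golgi, and ATP6V0E1 had values of 0.04 and 0.0026.

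ATP6AP2, an accessory protein of V0 that is also known as the prorenin receptor, lay between 192 and 211 CPM in F3 control and between 168 and 184 CPM in F3 sGC animals, with medians of 205 and 178 CPM. The ranges did not overlap, and its log2FC of -0.20 (SE 0.0311, adjusted p = 0.00270) was the lowest of the V-ATPase genes. The other accessory gene, ATP6AP1L, had a log2FC of -0.02 in F3 (adjusted p = 0.900). Over the 16 V-ATPase genes tested, 12 had a negative log2FC and the median was -0.13, beside 48.3% negative values and a median of 0.0048 over all genes.

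Among the beta subunits of the Na,K-ATPase, ATP1B1 was lower in F3 sGC animals. ATP1B1, the beta 1 subunit that brings the pump to the cell surface, lay between 1910.5 and 2064 CPM in control (median 2010.5) and between 1512 and 1765 CPM in sGC animals (median 1678). Its log2FC of -0.26 (SE 0.0357, adjusted p = 0.00195) was the lowest of all 50 members tested. Every sGC animal was below every control. ATP1B2, the glial beta 2 subunit, lay between 443 and 499 CPM in control (median 456) and between 457 and 483 CPM in sGC animals (median 465), with a log2FC of 0.02 (adjusted p = 0.813). The sGC animals overlapped with control. ATP1B3, another beta subunit, had a log2FC of -0.05 (adjusted p = 0.5685).

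Of the 9 calcium pump genes, only ATP2A2 passed the test in F3. ATP2A2 encodes SERCA2, which refills the endoplasmic reticulum with calcium, and it lay between 848 and 923 CPM in control (median 882) and between 764 and 804 CPM in sGC animals (median 798). The 7 sGC animals were below every control and close to each other (log2FC -0.16, SE 0.0279, adjusted p = 0.00676). ATP2A3, the SERCA3 gene, had the smallest p of the pumps with a positive log2FC (0.20, SE 0.0659, adjusted p = 0.0878), from 18.1 to 22.5 CPM in control (median 20.7) and from 20.3 to 26.8 CPM in sGC animals (median 23.9). The 4 PMCA genes ATP2B1 to ATP2B4 all had a negative log2FC, between -0.14 and -0.05, and none passed. ATP2C1, the Golgi calcium and manganese pump, missed the threshold narrowly (log2FC -0.13, SE 0.0354, adjusted p = 0.0501). The copper pumps ATP7A, which is mutated in Menkes disease, and ATP7B, which is mutated in Wilson disease, had log2FC of -0.06 and 0.17 (adjusted p = 0.684 and 0.352).

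**Figure D2:**
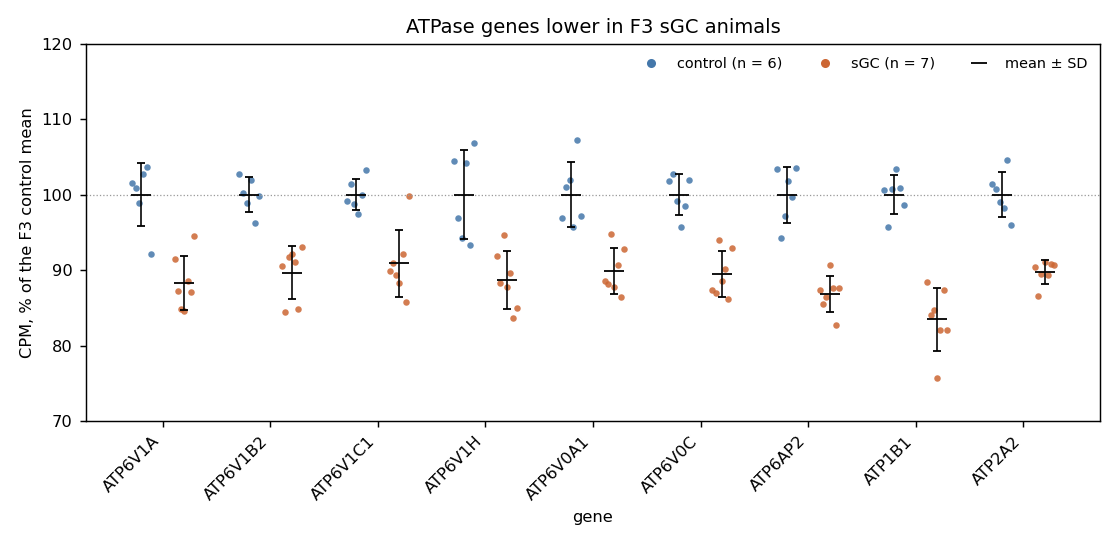
CPM of 9 of the called genes in each F3 library, as a percentage of the control mean of the gene (y axis, which does not start at 0), with blue points for 6 control and orange points for 7 sGC animals and black marks for the mean ± SD. For ATP6V1B2, ATP6V0A1, ATP6V0C, ATP6AP2, ATP1B1 and ATP2A2 every sGC point lies below every control point, and for ATP6V1A, ATP6V1C1 and ATP6V1H 1 sGC point overlaps with control.

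No flippase or P5 gene passed in F3. Of these 17 genes, 11 had a positive log2FC, as had 51.7% of all genes, with a median of 0.04 and a range from -0.11 to 0.16. The 5 P5 genes ATP13A1 to ATP13A5 all had a positive log2FC, with a median of 0.08. ATP11A, a plasma membrane flippase of phosphatidylserine, had the smallest p of the class (log2FC 0.11, SE 0.0403, adjusted p = 0.115), from 50.9 to 56.3 CPM in control (median 53.0) and from 54.3 to 63.4 CPM in sGC animals (median 56.7). ATP8B1 had the smallest p of those with a negative log2FC (-0.11, SE 0.136, adjusted p = 0.702), and its libraries are described below with F2. Over all 34 P-type genes, 18 had a negative log2FC and the median was -0.02, while the 17 pumps alone had a median of -0.07 and 12 negative values.

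Levels of 7 members, ATP6V1B2, ATP6V0A1, ATP6V0C, ATP6AP2, ATP1B1 and ATP2A2 among them, were lower in every sGC than in every control animal of F3, as were 1.88% of all genes tested. None was higher in every sGC animal, where 0.836% of all genes were. Without the libraries numbered 32 to 36, which leaves 5 sGC animals in F3, 7 of the 11 calls passed, against 2.79% of all genes. Among those that no longer passed were ATP6V1C1 (adjusted p = 0.0883), ATP6V1H (0.0695) and ATP6V0A1 (0.0559), with log2FC of -0.13, -0.16 and -0.15. Leaving out single libraries gave 9 to 12 calls in F3. ATP6V1C1 passed in 9 of these 13 fits, and the other 6 V-ATPase genes, ATP1B1 and ATP2A2 passed in all 13.

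In F3 sGC libraries the median level of neuronal markers was lower, as for the V-ATPase genes, and that of astrocyte markers was higher. In each library, the level of the V-ATPase was taken as the median over its genes of log2 CPM minus the control mean. It ran from -0.03 to 0.03 in F3 control and from -0.20 to -0.08 in F3 sGC libraries, without overlap, while the P-type level ran from -0.05 to 0.06 and from -0.05 to 0.04. The level of 11 neuronal markers ran from -0.04 to 0.04 in control and from -0.25 to -0.08 in sGC libraries. That of 9 astrocyte markers ran from -0.04 to 0.07 in control and from 0.13 to 0.25 in sGC libraries. The library lowest in the V-ATPase, F3 sGC replicate 6, was also the lowest in neuronal markers.

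Of the 11 neuronal markers, 9 had a negative log2FC in F3, and the median over the 11 was -0.17. The markers SNAP25, SYT1, NEFL, SYP, GAD1 and GAD2 (6 of 11) were called lower, beside 2.87% of all genes. The other 2 went the other way, with log2FC up to 0.18 and unadjusted p below 0.05, and were not called. The summed level of the 11 markers ran from 15211 to 16455 CPM in control libraries (median 15970). In sGC libraries it ran from 14362 to 17803 CPM (median 16130), which overlapped. Taken as a mean over the markers, the level also overlapped (-0.05 to 0.03 in control, -0.15 to 0.01 in sGC libraries). The mean over V-ATPase genes did not (-0.02 to 0.02 and -0.15 to -0.05). The 9 astrocyte markers all had a positive log2FC, with a median of 0.23. Of them, 4 were called higher (SLC1A2, GLUL, S100B and SLC4A4), beside 2.17% of all genes. Summed levels of the 9 were 9424 to 10406 CPM in control and 10636 to 12252 CPM in sGC libraries. The 6 microglial and 5 meningeal fibroblast markers tested also had positive values throughout, with medians of 0.12 and 0.18 and 0 calls in both lists. Medians were 0.05 for 4 oligodendrocyte, 0.01 for 5 endothelial, -0.01 for 5 hippocampal and -0.02 for 2 choroid plexus markers, with 0 calls, and no marker in the tables was at 0 in all libraries. In RNA from whole tissue, fewer cells of a type and less RNA per cell cannot be told apart. The part of the marker levels in the lower ATPase levels was not tested.

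**Figure D3:**
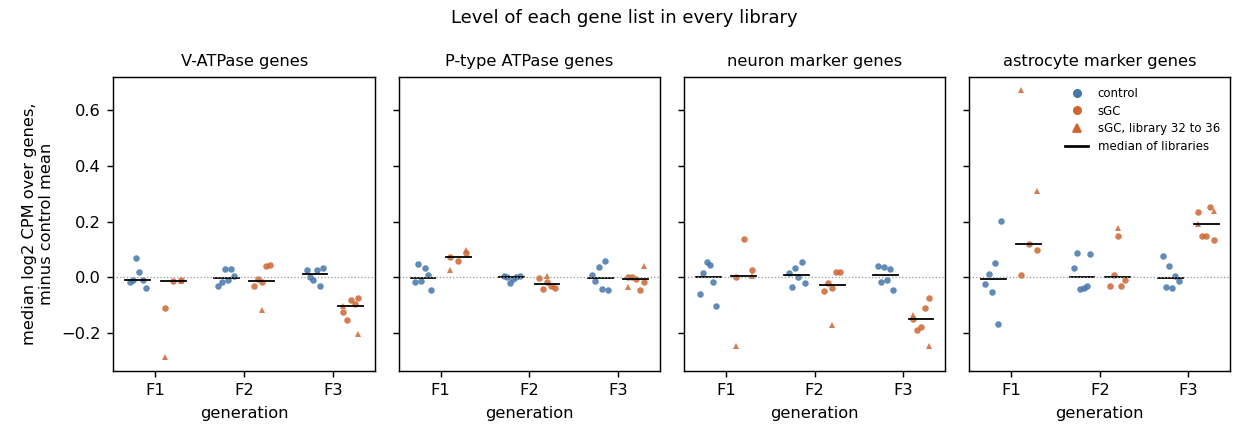
Level of V-ATPase genes, P-type genes, neuronal markers and astrocyte markers in each of 36 libraries (y axis, median over genes of log2 CPM minus the control mean of the generation) by generation (x axis), with blue for control, orange for sGC, triangles for libraries 32 to 36 and black lines for the median of libraries. In F3 the sGC points lie between -0.20 and -0.08 for the V-ATPase, below all control points, and between 0.13 and 0.25 for astrocyte markers, above all control points, while the P-type points overlap.

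In F1, ATP6AP1L was the single member called. It is named for its likeness to ATP6AP1, an accessory protein that takes part in V-ATPase assembly. The 6 control animals lay between 53.4 and 59.0 CPM (median 57.0), and sGC replicates 1 to 5 had 67.9, 64.6, 74.0, 70.04 and 68.6 CPM. Every sGC animal was above every control, as for 2.45% of all genes tested. Means were 56.4 ± 2.08 CPM (SD, n = 6) in control and 69.0 ± 3.43 CPM (SD, n = 5) in sGC animals, and the log2FC was 0.29 (SE 0.0426, adjusted p = 0.00552). It passed in all 11 fits that left out 1 library and without libraries 32 to 36 (log2FC 0.29, adjusted p = 0.0232).

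The remaining V-ATPase genes of F1 mostly had negative values that did not pass. Over the 16 tested, 12 had a negative log2FC and the median was -0.07, beside 51.7% negative values and a median of -0.0055 over all genes. Without F1 sGC replicate 4 this median was -0.02. That library had a V-ATPase level of -0.29 and a neuronal marker level of -0.25, and the other 4 sGC libraries had V-ATPase levels between -0.11 and -0.01. ATP6V1F, a subunit of the V1 rotor, had the smallest p in this direction, from 99.1 to 109 CPM in control (median 101.5) and at 92.9, 95.6, 93.6, 83.7 and 94.9 CPM in sGC replicates 1 to 5. All 5 sGC animals were below every control, as for 1.96% of all genes tested (log2FC -0.16, SE 0.0427, adjusted p = 0.0697). Without libraries 32 to 36 it had a log2FC of -0.13 (adjusted p = 0.125). With the likelihood ratio test of edgeR ATP6V1F passed (adjusted p = 0.0322), as it did with DESeq2 (0.0183). ATP6V0B, which had a log2FC of -0.18 (adjusted p = 0.127), was the only other V-ATPase gene with an unadjusted p below 0.05 and a negative value, where 9.06% of all genes had one.

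Flippases and P5 ATPases had mostly positive values in F1. Of the 16 genes tested, 14 had a positive log2FC, as had 48.3% of all genes, and the median was 0.14. Of them, 6 had an unadjusted p below 0.05 with a positive value (ATP8A1, ATP11A, ATP11B, ATP13A3 and ATP13A4 among them), as did 10.5% of all genes. None passed the adjustment in the quasi-likelihood test. ATP13A3, a polyamine transporter of endosomes, lay between 58.9 and 62.6 CPM in control (median 60.9) and had 63.4, 69.4, 66.6, 65.9 and 76.6 CPM in sGC replicates 1 to 5. Every sGC animal was above every control (log2FC 0.17, SE 0.0470, adjusted p = 0.0811). Without libraries 32 to 36 the log2FC of ATP13A3 was 0.13 (adjusted p = 0.142). It passed with edgeR's likelihood ratio test (adjusted p = 0.0452), with DESeq2 (0.0247), with all 36 libraries fitted together (0.0372) and without sGC replicate 1 (0.0497). ATP8B1 had the smallest p of those with a negative value (-0.03, adjusted p = 0.876), with 15.1 to 19.3 CPM in control (median 16.6) and 16.9, 16.7, 17.8, 14.8 and 16.3 CPM in sGC replicates 1 to 5.

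Of the F1 pumps, ATP7A came nearest to the threshold. It delivers copper to secreted enzymes and exports it from the cell. Control animals had 15.8 to 18.3 CPM (median 17.1), and sGC replicates 1 to 5 had 22.2, 18.9, 20.1, 18.2 and 20.6 CPM, so that 4 of 5 were above every control (log2FC 0.23, SE 0.0616, adjusted p = 0.0665). ATP7A had a log2FC of 0.26 without libraries 32 to 36 (adjusted p = 0.0798), and it passed with edgeR's likelihood ratio test (adjusted p = 0.0257), with DESeq2 (0.0230) and without sGC replicate 4 (0.0358). The median over the 17 pumps was -0.0053.

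The beta subunits of the Na,K-ATPase had 1 library at their extremes in F1. Control levels of ATP1B1 lay between 1731 and 2042 CPM (median 1932), and sGC animals had 1883, 1880.01, 1972, 1330.5 and 1827 CPM. Replicate 4 was the lowest of the 5. ATP1B2 lay between 373 and 471 CPM in control (median 441) and at 452, 447, 464, 569 and 441 CPM in sGC animals. Here replicate 4 was the highest of the 5. The log2FC were -0.11 for ATP1B1 and 0.14 for ATP1B2 (adjusted p = 0.501 and 0.310), and without libraries 32 to 36 they were -0.0058 and 0.08.

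**Figure D4:**
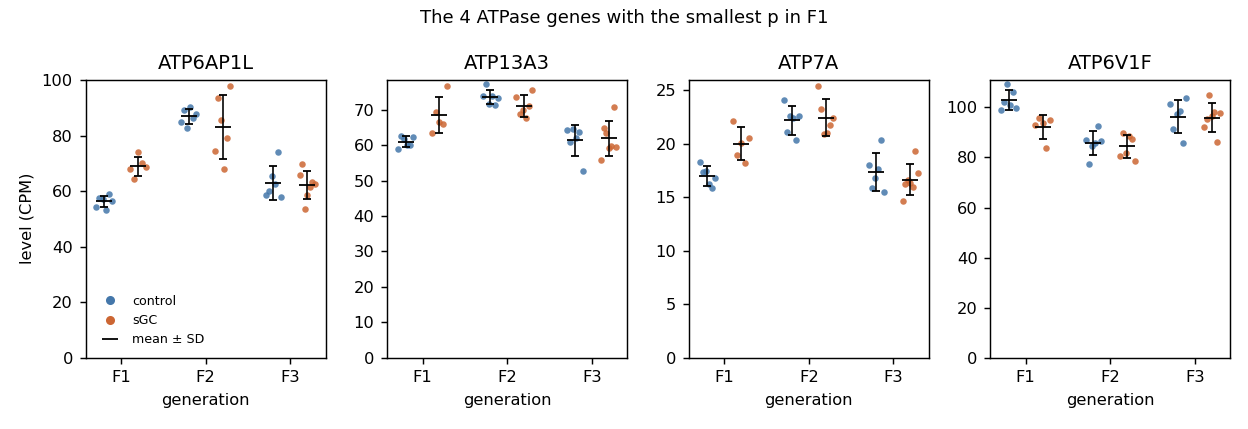
CPM (y axis, from 0) of the 4 members with the smallest p in F1, ATP6AP1L, ATP13A3, ATP7A and ATP6V1F, in control (blue) and sGC (orange) libraries of each generation (x axis), with black marks for the mean ± SD. In F1 all sGC points of ATP6AP1L lie between 64.6 and 74.0 CPM, above all control points, and in F2 and F3 the groups overlap for all 4 genes.

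The marker lists were also measured in F1. All 9 astrocyte markers had a positive log2FC (median 0.24), and the median was 0.07 without libraries 32 to 36. SLC4A4 was called higher, beside 1.63% of all genes. Neuronal markers had a median of -0.02, with 6 of 11 negative and 0 called, at summed levels of 14959 to 16512 CPM in control and 15534 to 17832 CPM in sGC libraries. The 5 meningeal fibroblast markers tested all had negative values (median -0.84). DCN and LUM, genes of matrix proteoglycans, were called lower, beside 0.457% of all genes. The summed level of the 5 markers was 81.5 to 226 CPM in control and 53.8 to 109.6 CPM in sGC libraries. The 4 oligodendrocyte markers tested had negative values (median -0.28), the 6 microglial ones positive values (median 0.18), and medians of 5 endothelial, 2 choroid plexus and 5 hippocampal markers were 0.01, -0.35 and -0.09, with 0 calls in all of these lists. Both choroid plexus markers were highest in 1 library, F1 control replicate 5. It had 13.1 CPM of FOLR1 and 28.8 CPM of KL, where the next highest controls had 9.0 and 16.1 CPM. The part of the marker lists in the ATPase levels of F1 was not tested.

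In F2 no member was called by edgeR's quasi-likelihood test, its likelihood ratio test or DESeq2, and ATP2A2 was the only member with an unadjusted p below 0.05, where 2.90% of all genes had one with a negative value. ATP2A2 lay between 929 and 987 CPM in control (median 966) and between 891 and 945 CPM in sGC animals (median 925), which overlapped (log2FC -0.06, SE 0.0235, adjusted p = 0.711). Medians were -0.02 for the V-ATPase and -0.02 for the P-type genes, beside -0.00041 over all genes. The V-ATPase median was 0.0024 without sGC replicate 6, the F2 library among those numbered 32 to 36. The smallest p in each class and direction belonged to ATP6V0E1 (log2FC 0.11, adjusted p = 0.773), ATP6V1A (-0.05, adjusted p = 0.764), ATP2A3 (0.08, adjusted p = 0.802), ATP8B1 (0.23, adjusted p = 0.798) and ATP9B, a flippase of the trans-Golgi network (-0.08, adjusted p = 0.764), besides ATP2A2. The value of ATP2A3 was 0.04 without control replicate 2, and that of ATP8B1 was 0.09 without sGC replicate 1. The Na,K-ATPase genes ATP1B1 and ATP1B2 had log2FC of -0.07 and 0.05, which were -0.04 without control replicate 5 and 0.02 without sGC replicate 3.

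ATP8B1, a flippase known for its part in bile secretion, split the libraries in a way that did not follow treatment. Levels were 28.6 and 27.5 CPM in F2 sGC replicates 1 and 3 and 26.4 and 27.1 CPM in F3 control replicates 3 and 6. The other 32 libraries, all of F1 among them, lay between 14.1 and 20.2 CPM. The SE of the log2FC of ATP8B1 was 0.166 in F2 and 0.136 in F3, beside 0.0705 in F1.

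Differences between generations in the sGC effect were tested as interactions over all 36 libraries, since a call in F3 and none in F1 does not show a difference. No member passed in any of 3 interactions (0 of 51 each). Over all genes, 0% were called for F3 against F1, 0.299% for F2 against F1 and 0% for F3 against F2. At an unadjusted p below 0.05, 1 member had a higher and 10 a lower effect in F3 than in F1, where 5.53% and 7.38% of all genes did. For F2 against F1 the counts were 3 and 7 (backgrounds 7.76% and 8.94%), and for F3 against F2 they were 1 and 8 (backgrounds 3.58% and 5.43%). ATP6AP1L had the smallest p of the members for F2 against F1 (difference of log2FC -0.36, SE 0.0938, adjusted p = 0.0580) and for F3 against F1 (-0.32, SE 0.0931, adjusted p = 0.163), and ATP6V0C for F3 against F2 (-0.21, SE 0.0632, adjusted p = 0.462).

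The comparison of F3 with F1 depended on the libraries numbered 32 to 36. Leaving these libraries out keeps only sGC replicates 1 to 3 in F1, so the values below rest on few F1 animals. Without them 7 members passed (ATP1B1, ATP2A2, ATP2B1, ATP2C1, ATP6V1A and ATP7A among them), all with a lower effect in F3, against 3.77% of all genes. ATP2A2 then had log2FC of 0.08 in F1 and -0.16 in F3 (difference -0.23, SE 0.0490, adjusted p = 0.00824). ATP6V1A had values of 0.13 and -0.18 (difference -0.31, SE 0.0662, adjusted p = 0.00921). Without F1 sGC replicate 4 alone 5 members passed (ATP1B1, ATP2A2, ATP2B3, ATP6V1A and ATP7A), against 3.99% of all genes. That library had the lowest V-ATPase level of all 36 (-0.29) and the lowest ATP1B1 level of the F1 sGC libraries (1330.5 CPM). Leaving it out is thus not independent of the members' own values. The log2FC of ATP1B1 in F1 was -0.02 without it, against -0.11 with it. Its neuronal marker level was -0.25 and its astrocyte marker level 0.67, the highest of all 36. The part of these levels in the difference was not tested.

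Genes that work with the pumps were described from lists written from general knowledge, with earlier results of these data known. Of 20 tested genes of V-ATPase assembly and organelle acidity, 1 was called in F1, beside 2.08% of all genes, and 2 in F3, beside 5.04%. DMXL1, a subunit of the complex that reassembles the pump, was higher in F1 (log2FC 0.18, SE 0.0374, adjusted p = 0.0300). OXR1, whose TLDc domain is known to bind the V-ATPase (log2FC -0.14, SE 0.0345, adjusted p = 0.0327), was among those called in F3, where 14 of the 20 had a negative log2FC, as had 48.3% of all genes, and the median was -0.06. In F1 and F2 the medians were -0.0071 and -6.3e-05.

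Of 16 tested partners of the Na,K-ATPase and of calcium clearance, 1 was called in F1 and 2 in F3, beside the same shares of all genes. SLC24A2, a sodium/calcium-potassium exchanger, was higher in F1 (log2FC 0.37, SE 0.0901, adjusted p = 0.0497). NPTN, neuroplastin, which is a subunit of PMCA complexes (log2FC -0.19, SE 0.0327, adjusted p = 0.00540), and SLC24A3, a relative of SLC24A2 (log2FC -0.12, SE 0.0323, adjusted p = 0.0371), were lower in F3. Medians of the list were -0.08 in F1, -0.0050 over 17 genes in F2 and -0.02 in F3. Of 6 copper handling genes, CCS, the copper chaperone of superoxide dismutase, was called lower in F1 (log2FC -0.21, SE 0.0495, adjusted p = 0.0466), beside 0.457% of all genes. The medians of this list were -0.01, 0.01 and 0.08 in F1, F2 and F3. Of 9 tested flippase partners and scramblases, VMP1, a scramblase of the endoplasmic reticulum, was called lower in F3 (log2FC -0.15, SE 0.0324, adjusted p = 0.0124), beside 2.87% of all genes. The medians here were 0.03, 0.0096 over 8 genes and 0.05. TMEM30A, the beta subunit of most P4 flippases, was not analysed here. None of the 4 lists held a call in F2.

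Control animals of different generations had close levels of most members, and members departed in F2 no more often than genes in general. The ratio of the control mean of F3 to that of F1, with all 36 libraries scaled together, ran from 0.921 to 1.28 over the 51 genes, and 0 differed by more than 1.5-fold, where 0.457% of all genes did. Between F2 and F1 3 of 51 did, against 8.49% of all genes. ATP6V0E1, a small V0 subunit, had control means of 50.6 CPM in F1, 11.2 CPM in F2 and 54.5 CPM in F3, so that the F2 level was 0.222 of that in F1. The control means of ATP2C2, a Golgi calcium pump, were 15.7, 6.93 and 16.03 CPM. Each generation has a table of its own, and generation and the making of its table cannot be told apart.

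**Figure D5:**
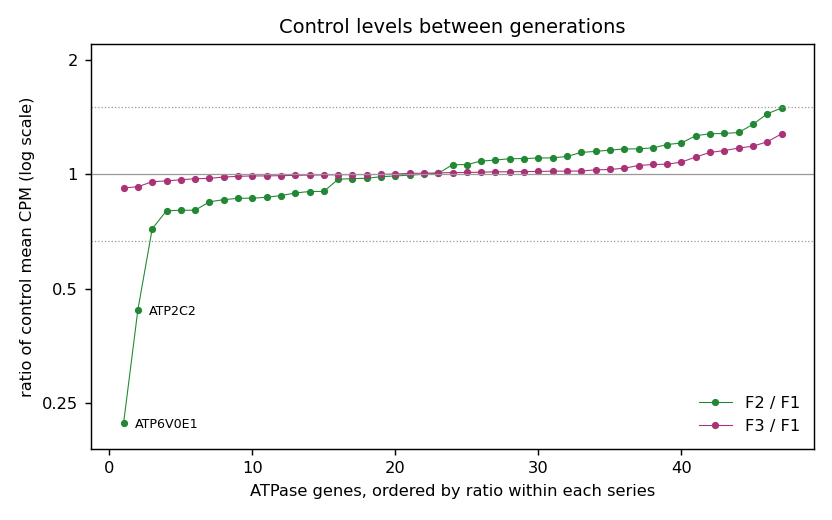
Ratio of control mean CPM (y axis, log scale) of F2 to F1 (green) and of F3 to F1 (purple) for 47 of the genes, ordered by ratio within each series (x axis), with dotted lines at 1.5-fold. In F2, ATP6V0E1 (0.222) and ATP2C2 (0.441) lie below these lines, and all F3 points lie between them.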

How the data were processed

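RNA was extracted from powdered right hippocampus and made into TruSeq RNA V2 libraries, which do not mark strand, so reads of a gene and of an antisense partner cannot be told apart. Per generation the authors deposited 1 table with the raw count of reads on each gene in each library. The submitters' processing notes name TopHat2, edgeR and Trimmomatic 0.32, and for methylation BSMAP 2.74, Picard 1.93, methylKit 1.4.0, HOMER 4.6 and R 3.2.3. The genome build, annotation and counting tool of the RNA tables are not given in the sources used here. Nor is the way in which reads shared by related genes (such as ATP6V1E1 and ATP6V1E2) were assigned.

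Columns of the authors' own comparisons (fold change, average level, likelihood ratio, p and FDR, and a column that resembles a dispersion) were not used, nor were the 6 methylation tables, which hold group differences with p and q values only.

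Counts were analysed with R 4.3.3 and edgeR 4.0.16: filterByExpr, TMM and the quasi-likelihood test of sGC against control within each generation, with Benjamini-Hochberg adjusted p below 0.05 as the threshold, on 11377, 11414 and 11359 genes. The study's methods name edgeR's likelihood ratio test, which was run as an alternative. Interactions used all 36 libraries and 11390 genes. DESeq2 1.42.0 was an alternative, and limma 3.58.1 was loaded with edgeR. Tables and figures used Python 3.11.15, pandas 2.3.3 and matplotlib 3.10.9. The fits were tested on simulated data. Groups came from the sample labels. Libraries of 1 group differed by more than counting error (chi-square per degree of freedom 2.15 to 29.5).

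Named were members called, the member with the smallest p per class, direction and generation, Na,K-ATPase subunits of neurons and glia, and up to 3 called partners per list, and other members named were chosen after their values were seen. Results of some genes are left out of the text and figures but stay in the counts and medians. The members and lists were chosen with earlier results of these data known. The deviations of same-numbered libraries correlated above 0.1 in 2 of 5 pairs in F1, 1 of 6 in F2 and 0 of 6 in F3, so the replicate number was used as a block only as an alternative.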

Additional observations from a re-analysis of the deposited data

Results flagged for a closer look

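Dixon's test for an outlying library was applied in each group of 5 to 7 animals. It covered the CPM of the named members and the V-ATPase and P-type levels of the libraries. In 5 of 70 such groups there was one, each time in the CPM of a named member, where chance gives about 1 in 20. F1 sGC replicate 4 accounted for 3 of them. It had 83.7 CPM of ATP6V1F (next lowest 92.9), 1330.5 CPM of ATP1B1 (next lowest 1827) and 569 CPM of ATP1B2 (next highest 464). In F2, sGC replicate 3 was high in ATP1B2 at 419 CPM (next 369). In F3, sGC replicate 2 was low in ATP2A2 at 764 CPM (next 789.6). The call of ATP2A2 in F3 passed without this library, as in all 13 fits that left out 1 library, with adjusted p up to 0.0224 in edgeR's quasi-likelihood test.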

How the results depend on the processing

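The count of members called in F1 was 4 with the likelihood ratio test (beside 5.26% of all genes) and with DESeq2 (6.55%), where ATP13A3, ATP7A and ATP6V1F joined ATP6AP1L, and 5 with all 36 libraries fitted together (7.47%), which added ATP6V0B, against 1. It was 1 to 2 when 1 library was left out (0.490% to 2.995% of all genes). In F3 it was 7 without libraries 32 to 36 (beside 2.79% of all genes), 14 with the likelihood ratio test (6.94%), 16 with DESeq2 (12.7%, with 1 of the 16 higher), 8 with all libraries together (3.38%) and 9 to 12 when 1 library was left out (2.54% to 5.63%), against 11. For F3 against F1 it was 7 without libraries 32 to 36 (3.77%) and 0 to 5 when 1 library was left out (0% to 3.99%). For F2 against F1 it was 1 (ATP6AP1L) with the likelihood ratio test (1.45%) and with DESeq2 (2.01%), and 0 to 1 when 1 library was left out (1 without F2 sGC replicate 6, F3 control replicate 5 or F3 sGC replicate 3), where 0% to 1.92% of all genes were called. The count was 0 in both interactions with all libraries and the quasi-likelihood test. The cause was not tested. The P-type median in F3 ran from -0.0369 to 0.0225 when 1 library was left out and was positive without control replicate 5.

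Without libraries 32 to 36 the sign turned for ATP8B1 in F1 (0.0273), which was not called. Leaving out 1 library gave ranges for ATP8B1 from -0.0538 to 0.0208 in F1 and from -0.177 to 0.00495 in F3, and from 0.0852 to 0.308 in F2. Without libraries 32 to 36 the F1 marker medians were 0.07 for astrocytes, -0.18 for oligodendrocytes, 0.07 for microglia and -1.11 for meningeal fibroblasts (DCN, LUM, COL1A1, COL1A2 and ALDH1A2).

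With the replicate number as a block, 1, 0 and 10 members were called in F1, F2 and F3, beside 0.598%, 0% and 1.51% of all genes, and 0 in each interaction, beside 0% to 0.0351%. The call lost was ATP6V1H (adjusted p = 0.121). Same-numbered libraries had correlations of deviations from -0.07 to 0.30 over 5 pairs in F1, from -0.37 to 0.19 over 6 in F2 and from -0.29 to 0.02 over 6 in F3, so the numbers are not known to pair animals. Other test settings, DESeq2 size factors and no low-count filter among them, left each count of members within 1.5 times its value. Scaling by DESeq2 size factors moved the median of all genes by less than 0.01. A search of promoters for motifs was not run, as promoter sequence was not used here. Genes with few reads limit what could be seen, such as ATP8B4 (SE 0.43 in F2).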
